A study of Mus musculus with 4 samples.

Results

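The 10 genes described here are the lens RNA-binding genes *Tdrd7*, *Celf1*, *Rbm24* and *Caprin2* and the inherited cataract genes *Fyco1*, *Chmp4b*, *Agk*, *Galk1*, *Slc16a12* and *Nhs*. They were taken by gene symbol, by a rule that does not use their measured values, from a table of 56748 genes. Earlier results of these data were known when the genes were chosen. All 10 were present and passed the filter on low values described below. They were measured by polyA RNA sequencing of whole lenses from mice aged 10 to 12 days, to ask which transcripts differ early between lenses with and without a hyperactive PDGFRβ receptor. The mutant group held 2 libraries from Fsp1-cre;Pdgfrb+/D849V mice and the control group held 2 libraries. For the controls the sample labels give the genotype Fsp1-cre;Pdgfrb+/+, whereas the methods of the study describe control pools that mixed this genotype with cre-negative Pdgfrb+/+ and cre-negative Pdgfrb+/D849V animals, so that a control pool may carry the D849V allele without cre. Mice were of FVB/N background and the cross included a cre-dependent tdTomato reporter. The *Fsp1-cre* transgene is not specific to the lens, the D849V allele is knocked into the endogenous *Pdgfrb* locus, and a gene-level value does not tell its 2 alleles apart. The earliest age at which the paper describes the transgene as turning on is later than the age sequenced here. The paper describes robust cre reporter signal in the lens epithelium at that later age. It assumes, and does not show, that the mutant receptor is expressed once cre is on. Activity of the receptor at the age sequenced was not measured here. Lenses of more than 1 mouse were pooled in each library, and p-values measure the spread between these pools. In a whole lens, fewer cells of a type and less RNA per cell cannot be told apart.

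Lens fibre cells lose their nuclei and organelles as they mature and then live on the mRNA and protein they have stored. RNA-binding proteins that govern splicing, stability and translation of stored mRNA are therefore needed for a clear lens, and loss of *Tdrd7*, *Celf1*, *Rbm24* or *Caprin2* in mice gives cataract or other defects of the eye. The inherited cataract genes of the set act at other steps of fibre cell life, namely vesicle transport and autophagy, membrane scission, mitochondrial lipid and protein import, galactose breakdown, solute transport and control of the actin cytoskeleton.

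Levels are given as FPKM, read fragments scaled by the length of the gene model and by a factor per library, as deposited by the authors. Multiplied by gene length, 100% of the values of every library were whole multiples of 1 step within a tolerance of 0.01, which gave whole reads, 18561682 to 18878768 per library. The library factor behind the FPKM was 1.78e+07 and 1.96e+07 in mutant and 1.94e+07 and 1.84e+07 in control replicates 1 and 2. It did not follow the total of reads, so the deposited values already carried a scaling between libraries. Between 58.6% and 62.9% of these reads fell on 19 crystallin genes. Mutant was compared with control on log2(FPKM + 0.1) with limma over the 15997 genes whose mean FPKM reached 0.1, and p-values were adjusted over all of them by the Benjamini-Hochberg method. The added 0.1 shrinks the fold change of a gene with few FPKM. Lens fibre markers were abundant in every library, with *Cryaa*, an α-crystallin, at 66165 to 74239 FPKM, and *Foxe3*, a transcription factor of the lens epithelium, stood at 103 to 122 FPKM. Of the 5 epithelial markers, 1 had an unadjusted p under 0.05 in limma, the integrin *Itga6*, at 7.67 and 7.44 FPKM in mutant and 9.30 and 9.97 FPKM in control lenses (log2 fold change -0.35, limma unadjusted p = 0.016, adjusted p = 0.707). In voom *Itga6* had an unadjusted p of 0.0035 and an adjusted p of 0.354. *Cdh1*, E-cadherin, stood at 5.81 and 10.1 against 12.1 and 8.25 FPKM (log2 fold change -0.38, limma adjusted p = 0.810), with an unadjusted p of 0.047 and an adjusted p of 0.671 in voom. The rest of the epithelial list, *Foxe3*, *Pax6* and *Cryab*, had log2 fold changes of -0.03, 0.004 and 0.07 (limma, adjusted p = 0.971, 0.997 and 0.962). *Lim2*, a fibre membrane protein, was listed at 0 in all 4 libraries, while the overlapping same-strand model *Gm52993* held 222 to 282 reads. Markers of cornea, retina, macrophages, mesenchyme and pigment cells summed to at most 2.31 FPKM per list and library. Those of endothelium summed to 5.60 to 8.48 and those of blood to 17.2 to 34.9 FPKM. The blood marker *Hba-a1* held 275 and 145 reads in mutant and 343 and 241 in control libraries, which overlapped (voom, unadjusted p = 0.025, adjusted p = 0.597). The summed level of 3 lists separated the groups. Macrophage markers summed to 1.41 and 1.5 FPKM in the mutant libraries, against 0.680 and 0.465 FPKM in the controls. The 2 of them that were tested were *C1qa* (limma, unadjusted p = 0.026, adjusted p = 0.761) and *Cd68* (limma, unadjusted p = 0.049, adjusted p = 0.788). Both were higher in the mutant libraries but held few reads, 19 and 13 against 9 and 5 for *C1qa* and 6 and 16 against 4 and 2 for *Cd68*. *Aif1*, of the same list, overlapped at 0 and 3 against 0 and 2 reads. *Csf1r* held 10 and 11 against 8 and 5 reads, and *Adgre1* 1 and 1 against 0 and 0. Mesenchyme markers summed to 1.01 and 1.32 against 0.799 and 0.722 FPKM, with *Lum* listed at 0 throughout and *Col1a1*, a fibrillar collagen, at 28 and 40 against 6 and 9 reads (limma, unadjusted p = 0.042, adjusted p = 0.785). In voom *Col1a1* had an unadjusted p of 0.0012 and an adjusted p of 0.250. *Col1a2*, the most abundant of the list, overlapped, at 0.659 and 0.876 against 0.679 and 0.537 FPKM (limma, unadjusted p = 0.270). *Col3a1* overlapped too, at 20 and 18 against 14 and 20 reads, and *Dcn* held 4 reads in mutant replicate 2 alone. Pigment cell and ciliary body markers summed to 0.634 and 0.709 against 0.845 and 1.34 FPKM. Of these, *Pmel* held 10 and 6 against 12 and 23 reads, and *Tyrp1* overlapped, at 16 and 30 against 29 and 38 reads. *Tyr*, *Dct* and *Mlana* held at most 7 reads in a library. The part of the marker lists in the results was not tested. *Xist*, which is transcribed from the inactive X chromosome, stood at 7.62 and 13.1 FPKM in mutant replicates 1 and 2 and at 15.6 and 5.56 FPKM in control replicates 1 and 2, so that the pools differed in it within each group.

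The 10 genes were expressed in both genotypes and none passed the test for a difference between them. Their levels spanned a ratio of 2269 between the highest mean, 564 FPKM for *Tdrd7*, and the lowest, 0.249 FPKM for *Agk*, on the length of the gene models, and a ratio of 537 on that of the longest coding transcripts. At an adjusted p under 0.05, 0 of 10 genes were called by limma, where 6 of all tested genes were called, which is 0.0375%. At an unadjusted p under 0.05, 0 of 10 were called beside 6.31% of all tested genes. In voom, limma's test for counts, run on the recovered reads, 1 of 10 had an unadjusted p under 0.05, *Caprin2*, beside 7.43% of all tested genes, and 0 of 10 passed adjustment. Mutant over control, the log2 fold change was above 0 for 5 genes and below 0 for 5, with a median of -0.01 beside 0.00 for all tested genes. Both mutant libraries lay above both control libraries for 3 of 10 genes, *Caprin2*, *Chmp4b* and *Agk*, beside 18.2% of all tested genes. Both mutant libraries lay below both controls for another 3, *Celf1*, *Fyco1* and *Slc16a12*, beside 18.3% of all tested genes. The groups overlapped for *Tdrd7*, *Rbm24*, *Galk1* and *Nhs*. These statements hold for the deposited FPKM and depend on its scaling between libraries. On recovered reads the groups were apart for *Tdrd7* (44219 and 43553 against 38757 and 41264). There they overlapped for *Celf1* (4450 and 5599 against 5938 and 5400), *Chmp4b* (1555 and 1684 against 1606 and 1447) and *Slc16a12* (189 and 310 against 324 and 304). The counts of 3 above and 3 below lie within 2 genes of what the shares over all tested genes would give for 10.

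**Figure D1:**
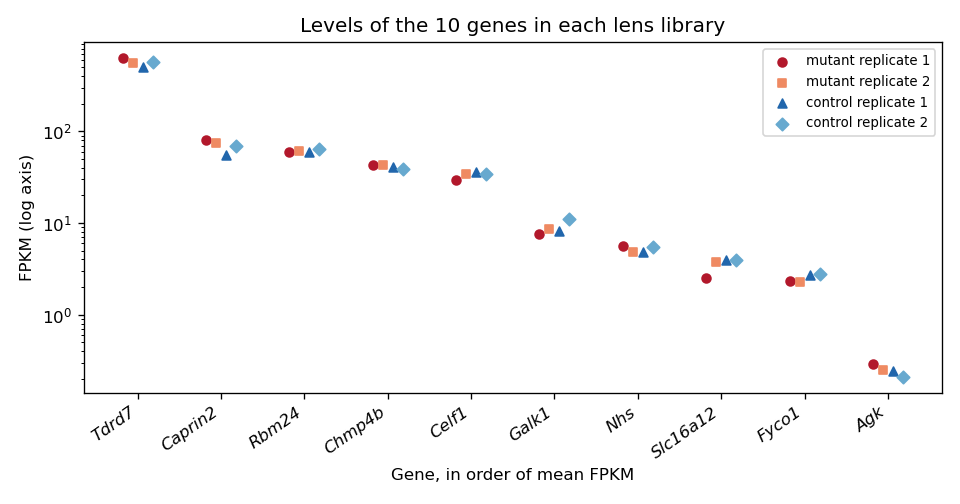
FPKM (log axis) of each of the 10 genes in each of the 4 lens libraries, with genes in order of their mean and 1 point per library. *Tdrd7* stands at 504 to 627 FPKM, above every other gene, *Agk* stands at 0.210 to 0.291, below every other, and the libraries of a gene lie close together on this scale whatever their genotype.

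In order of mean level, which FPKM gives per length of gene model, *Tdrd7* (564 FPKM) was followed by *Caprin2* (70.4), *Rbm24* (61.3), *Chmp4b* (41.2), *Celf1* (33.6), *Galk1* (8.85), *Nhs* (5.18), *Slc16a12* (3.57), *Fyco1* (2.53) and *Agk* (0.249). All 4 RNA-binding genes were among the highest 5 of the 10. Neighbours in this order had separate ranges over the 4 libraries except for 2 pairs. *Caprin2* and *Rbm24* overlapped and were in this order in 3 of 4 libraries, and *Slc16a12* and *Fyco1* overlapped but were in this order in all 4. FPKM divides by the length of the whole gene model, which for 2 genes was far longer than their longest coding transcript in GENCODE M21. The model of *Caprin2* is 14140 bases against 3697 for that transcript, and the model of *Agk* 11392 against 2531 bases. On the length of the coding transcript, *Caprin2* stood at 269 and *Agk* at 1.12 FPKM, and the order of the 10 genes was the same.

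*Tdrd7* (ENSMUSG00000035517, mm39 chromosome 4, 45965334 to 46034761, plus strand) encodes a tudor-domain protein of cytoplasmic RNA granules in lens fibre cells, and its loss causes cataract in humans and mice. It was the most abundant member, by a factor of 8.02 over *Caprin2* on the length of the gene models and of 2.23 on that of the coding transcripts, and ranked 39 of the 15997 genes tested. It stood at 627 and 562 FPKM in mutant replicates 1 and 2 and at 504 and 566 FPKM in control replicates 1 and 2, from 38757 to 44219 reads. Mutant replicate 1 was the highest and control replicate 1 the lowest library, and the groups overlapped, with counting intervals of 557 to 567 FPKM in mutant replicate 2 and 560.1 to 571 FPKM in control replicate 2. The mean was 594 ± 45.7 FPKM in mutant and 535 ± 43.8 FPKM in control lenses (SD, n = 2 libraries each). Between genotypes the log2 fold change was 0.15 with a standard error of 0.12 (limma, adjusted p = 0.810), and its 95% interval ran from -0.15 to 0.46. *Tdrd7* reads made up 0.631% and 0.564% of all reads outside the crystallin genes in the mutant libraries and 0.510% and 0.574% in the control libraries.

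RefSeq gives 3 start sites for *Tdrd7*, and a value per gene does not tell which is used. Promoter windows of 300 bases, 250 before and 50 after a start, were read from RefSeq on GRCm38.p6, a different build from that of the gene positions given here, for all 10 genes (13 windows). The core promoter element known as the TATA box was searched as the letters TATAAA on both strands and occurred in 13.6% of 32851 promoter windows of all genes and in 1 of the 13. That window is the first of *Tdrd7*, chr4:45965085-45965384 on the plus strand, shown because it belongs to the most abundant member. The capitals mark the box, which matched on both strands at overlapping positions.
Tdrd7 window 1: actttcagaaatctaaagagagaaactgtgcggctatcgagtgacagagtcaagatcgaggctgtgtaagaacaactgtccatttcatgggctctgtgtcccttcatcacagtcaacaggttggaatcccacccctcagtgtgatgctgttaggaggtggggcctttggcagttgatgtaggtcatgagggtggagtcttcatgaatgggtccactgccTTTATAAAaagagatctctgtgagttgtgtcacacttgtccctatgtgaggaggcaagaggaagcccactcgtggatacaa
The other 2 windows of *Tdrd7* held no TATAAA but 2 matches each to GGGCGG, the GC box bound by Sp factors, which occurred in 35.7% of all windows and in 7 of the 13. The letters TGCTGA, the core of the site of Maf factors, which drive crystallin genes, occurred in 19.5% of all windows and in 1 of the 13, the second of *Tdrd7*. GAANNTTC, the core of a heat shock element, occurred in 7.86% of all windows and in 2 of the 13, those of *Agk* and the second of *Fyco1*. These matches describe the sequence alone.

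*Caprin2* (ENSMUSG00000030309, mm39 chromosome 6, 148743990 to 148797735, minus strand) encodes an RNA-granule protein whose loss in the mouse lens gives a compact fibre nucleus and, in some animals, a lens that stays joined to the cornea. It stood at 80.6 and 75.1 FPKM in the mutant and at 55.9 and 69.8 FPKM in the control libraries, from 15370 to 20803 reads. Both mutant libraries were above both controls, and the gap between the control libraries was wider than the gap between mutant replicate 2 and control replicate 2. The mean was 77.9 ± 3.89 FPKM in mutant and 62.9 ± 9.84 FPKM in control lenses (SD, n = 2 each). Its log2 fold change of 0.32 with a standard error of 0.13 had the smallest p of the 10 genes (limma, unadjusted p = 0.061, adjusted p = 0.806), and the 95% interval ran from -0.02 to 0.66. In voom its unadjusted p was 0.0075 and its adjusted p 0.428. With a term for high and low *Xist*, limma gave an unadjusted p of 0.024 and an adjusted p of 0.682. The value rested in part on control replicate 1, since the log2 fold change was 0.16 without this library and 0.48 without control replicate 2. The 3 tested genes whose deviations over the 4 libraries lay nearest to those of *Caprin2* were *Camkmt*, *Dmrtc1a* and *Tafa5*, at Euclidean distances of 0.032 to 0.038 on log2(FPKM + 0.1), and 61 genes lay within 0.1.

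*Rbm24* (ENSMUSG00000038132, mm39 chromosome 13, 46571910 to 46584571, plus strand) encodes an RNA-binding protein that stabilizes mRNA and regulates splicing in muscle and eye. It varied least among the RNA-binding members, with 60.0 and 61.1 FPKM in the mutant and 59.5 and 64.4 FPKM in the control libraries. Control replicate 1 was the lowest and control replicate 2 the highest library, so that the mutant values lay between the controls. The log2 fold change was -0.03 with a standard error of 0.09 (limma, adjusted p = 0.953), and the 95% interval from -0.26 to 0.19 leaves room for changes in either direction.

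*Celf1* (ENSMUSG00000005506, mm39 chromosome 2, 90770727 to 90849842, plus strand) encodes a regulator of splicing, mRNA decay and translation whose loss causes cataract in mice. It stood at 29.6 and 33.9 FPKM in the mutant and at 36.2 and 34.7 FPKM in the control libraries, from 4450 to 5938 reads. Mutant replicate 1 was the lowest library, and the counting intervals of mutant replicate 2 (33.0 to 34.8 FPKM) and control replicate 2 (33.8 to 35.6 FPKM) overlapped. On the log2 scale the fold change was -0.16 with a standard error of 0.10 (limma, adjusted p = 0.810) and a 95% interval from -0.43 to 0.10. Without mutant replicate 1 it was -0.06, and without mutant replicate 2 it was -0.26 (limma, unadjusted p = 0.041, adjusted p = 0.537). Together the 4 RNA-binding genes took 0.385% and 0.397% of all reads in the mutant libraries, against 0.345% and 0.369% in the controls. Most of these reads were of *Tdrd7* and *Caprin2*, with log2 fold changes above 0, while those of *Celf1* and *Rbm24* were below 0, and none of the 4 was called.

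**Figure D2:**
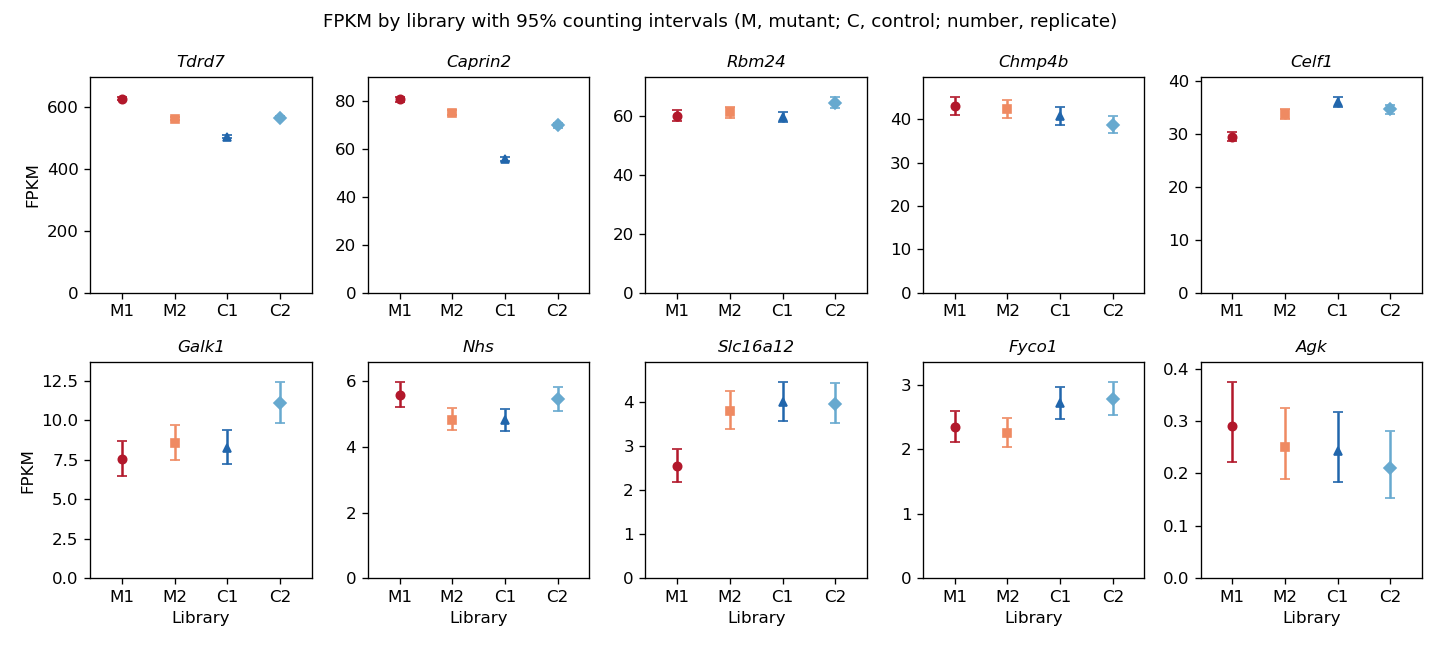
FPKM of each of the 10 genes, 1 panel per gene with its own axis from 0, in mutant (M) and control (C) replicates 1 and 2, with exact Poisson 95% intervals that cover counting error only. The intervals are narrow for *Tdrd7* and wide for *Agk*, mutant replicate 1 stands apart from the other 3 libraries for *Slc16a12* (2.54 against 3.80 to 4.0 FPKM), and control replicate 2 is the highest library for *Galk1* (11.1 FPKM).

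*Fyco1* (ENSMUSG00000025241, mm39 chromosome 9, 123618565 to 123680964, minus strand) encodes the adaptor that links late endosomes and autophagosomes to kinesin, and its loss causes recessive congenital cataract. It stood at 2.35 and 2.26 FPKM in the mutant and at 2.72 and 2.78 FPKM in the control libraries, from 371 to 468 reads. Both mutant libraries were below both controls, and the ratio of replicate 1 to replicate 2 was 1.04 in mutant and 0.977 in control lenses, although the counting intervals of mutant replicate 1 (2.12 to 2.60 FPKM) and control replicate 1 (2.48 to 2.97 FPKM) overlapped. Mutant over control, the log2 fold change was -0.24 with a standard error of 0.12 (limma, unadjusted p = 0.094, adjusted p = 0.810), its 95% interval ran from -0.55 to 0.06, and it kept its sign with any 1 library left out, at -0.27 to -0.22. In voom the unadjusted p was 0.066. The same-strand model *Gm17021*, which overlaps *Fyco1*, held at most 2 reads in a library, the opposite-strand gene *Cxcr6* held at most 1, and the opposite-strand model ENSMUSG00000120808 was listed at 0. The nearest profiles were those of *Aatk*, *Dgkg* and *Tecpr1* at distances of 0.020 to 0.033, with 175 genes within 0.1.

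*Fyco1* has 2 overlapping RefSeq promoter windows, neither with a TATA box or a GC box. The first, chr9:123851850-123852149 of GRCm38.p6 on the minus strand, carries a tandem repeat and is shown for it, with each copy of GANTTGTAG in capitals. These letters were chosen after the sequence had been seen, and the window holds 6 copies of them.
Fyco1 window 1: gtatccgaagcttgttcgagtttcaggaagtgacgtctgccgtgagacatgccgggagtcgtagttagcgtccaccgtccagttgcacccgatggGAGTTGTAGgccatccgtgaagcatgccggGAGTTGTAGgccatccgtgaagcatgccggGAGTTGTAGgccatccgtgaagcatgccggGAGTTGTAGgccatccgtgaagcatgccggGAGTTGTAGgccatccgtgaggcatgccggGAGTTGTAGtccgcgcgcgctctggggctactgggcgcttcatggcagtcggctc
GANTTGTAG occurred at least once in 1.42% of all 32851 windows, on either strand, and 5 or more times in 1 of them, which is this window. No value in these data bears on the repeat.

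*Chmp4b* (ENSMUSG00000038467, mm39 chromosome 2, 154493625 to 154536705, plus strand) encodes a subunit of ESCRT-III, the complex that cuts membrane necks, and dominant mutations in it cause posterior polar or subcapsular cataract. It stood at 43.0 and 42.4 FPKM in the mutant and at 40.7 and 38.7 FPKM in the control libraries, from 1447 to 1684 reads. The groups did not overlap, but the intervals of mutant replicate 2 (40.4 to 44.5 FPKM) and control replicate 1 (38.8 to 42.8 FPKM) did. The log2 fold change of 0.11 with a standard error of 0.08 (limma, adjusted p = 0.810) had the narrowest 95% interval of the 10 genes, from -0.11 to 0.32.

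*Agk* (ENSMUSG00000029916, mm39 chromosome 6, 40302106 to 40373696, plus strand) encodes mitochondrial acylglycerol kinase, also a subunit of the TIM22 protein import complex, and is mutated in Sengers syndrome, which joins cataract with cardiomyopathy. It was the least abundant member, with 0.291 and 0.251 FPKM in the mutant and 0.244 and 0.210 FPKM in the control libraries. These values rest on 59 and 56 reads against 54 and 44, and the counting intervals of all 4 libraries overlapped, from 0.152 to 0.375 FPKM in all. The log2 fold change of 0.18 had the largest standard error, 0.33 (limma, adjusted p = 0.919), and the widest 95% interval of the 10 genes, from -0.66 to 1.02. Without limma's trend the standard error was 0.15 (unadjusted p = 0.295).

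*Galk1* (ENSMUSG00000020766, mm39 chromosome 11, 115899283 to 115903545, minus strand) encodes galactokinase, the first enzyme of galactose breakdown, whose deficiency in humans leads to cataract through galactitol. It stood at 7.54 and 8.54 FPKM in the mutant and at 8.27 and 11.1 FPKM in the control libraries, from 189 to 287 reads. Control replicate 2 was above the other 3 libraries and control replicate 1 lay between the mutant libraries. The log2 fold change was -0.25 with a standard error of 0.17 (limma, adjusted p = 0.810) and a 95% interval from -0.68 to 0.18, and it was -0.04 without control replicate 2 and -0.46 without control replicate 1.

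*Slc16a12* (ENSMUSG00000009378, mm39 chromosome 19, 34645803 to 34724689, minus strand) encodes a transporter of the monocarboxylate family that carries creatine, and a dominant mutation in it causes juvenile cataract. It stood at 2.54 and 3.80 FPKM in the mutant and at 4.0 and 3.95 FPKM in the control libraries, from 189, 310, 324 and 304 reads. Mutant replicate 1 stood apart, with a counting interval (2.19 to 2.93 FPKM) that did not reach that of mutant replicate 2 (3.39 to 4.24 FPKM), while mutant replicate 2 lay within the intervals of both controls. The log2 fold change of -0.34 was the largest in size of the 10 genes, with a standard error of 0.21 (limma, adjusted p = 0.810) and a 95% interval from -0.87 to 0.18. It was -0.06 without mutant replicate 1 and -0.62 without mutant replicate 2 (limma, unadjusted p = 0.014, adjusted p = 0.519). In voom the unadjusted p was 0.051. The nearest profiles were those of *Pus10*, *Zfp955b* and *Ctps*, at distances of 0.047 to 0.051, and 43 genes lay within 0.1. The opposite-strand pseudogene *Gm18425*, within *Slc16a12*, held at most 1 read.

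*Nhs* (ENSMUSG00000059493, mm39 chromosome X, 160616292 to 160942726, minus strand) encodes a regulator of actin remodelling and is mutated in the X-linked Nance-Horan syndrome of cataract and dental anomalies. It stood at 5.60 and 4.84 FPKM in the mutant and at 4.82 and 5.46 FPKM in the control libraries, from 825 to 887 reads. Each genotype held 1 higher and 1 lower library, and the log2 fold change was 0.02 with a standard error of 0.13 (limma, adjusted p = 0.985) and a 95% interval from -0.32 to 0.36. The higher pair, mutant replicate 1 and control replicate 2, was also the pair with less *Xist* and with the larger crystallin share, 62.9% and 61.5% of reads against 58.6% and 59.0%. *Tdrd7* and *Caprin2*, which are not on the X chromosome, were likewise higher in mutant replicate 1 than 2 and in control replicate 2 than 1. The part of *Xist* or of the crystallin share in these levels was not tested. The opposite-strand model *Gm15202*, within *Nhs*, held 13 to 28 reads in a library, *Gm23794* at most 1, and *Gm26317* was listed at 0.

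**Figure D3:**
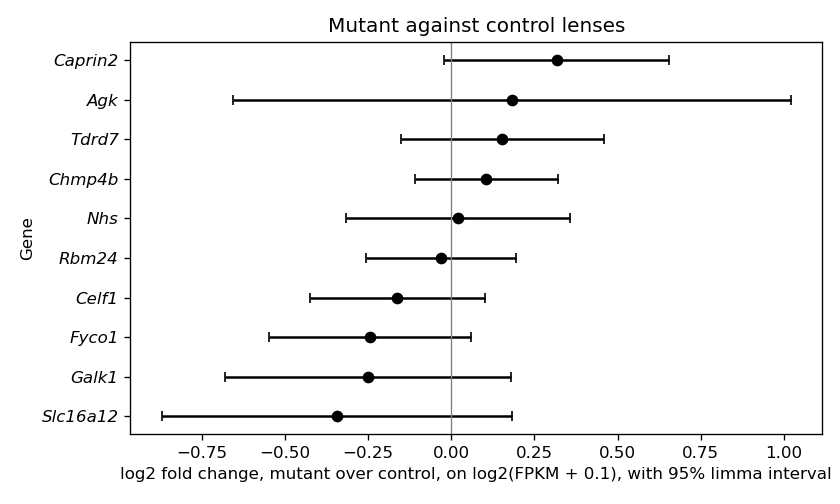
Log2 fold change of mutant over control on log2(FPKM + 0.1) for the 10 genes, ordered by size, with 95% limma intervals and a line at 0. Every interval includes 0, from *Slc16a12* at -0.34 to *Caprin2* at 0.32, and that of *Agk* is the widest.

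The partners of these genes were read from 10 lists of 134 genes in all, of which 131 were in the table and 114 were tested. None of the 114 passed limma's adjusted test or voom's, and the smallest adjusted p in limma was 0.757. Of the 114, 4 had an unadjusted p under 0.05 in limma, which is 3.51% beside 6.31% of all tested genes, with mutant lenses higher for 1 and lower for 3. In voom, *Col4a1* (unadjusted p = 0.0058, adjusted p = 0.411) and *Kif5a* (unadjusted p = 0.016, adjusted p = 0.542), both lower in mutant lenses, also fell under 0.05 before adjustment. So did *Map1lc3b* (voom, unadjusted p = 0.022, adjusted p = 0.589), higher in mutant lenses. The counts by list below are those of limma. Both mutant libraries were above both controls for 17 genes, 14.9% of the 114 beside 18.2% of all tested genes, and below them for 20, 17.5% beside 18.3%. The median log2 fold change was 0.01.

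Among relatives of the RNA-binding members, 9 of 15 were tested, 0 with an unadjusted p under 0.05, with a median log2 fold change of 0.04. The most abundant were *Rbm38*, the closest relative of *Rbm24*, at 18.5 and 17.6 FPKM in mutant and 14.7 and 17.4 FPKM in control lenses, and *Caprin1*, the relative of *Caprin2*, at 12.6 and 13.7 against 12.7 and 13.6 FPKM. Each stood below its relative in the set in every library. Of 12 granule partners, 1 had an unadjusted p under 0.05, *Ddx6*, a helicase of processing bodies, with 4.76 and 5.19 FPKM in mutant and 6.43 and 5.92 FPKM in control lenses. Its log2 fold change was -0.31 (limma, unadjusted p = 0.040, adjusted p = 0.783).

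The transcripts reported as targets of lens RNA-binding proteins gave 0 of 7 with separate groups and 0 of 7 with an unadjusted p under 0.05. Over all tested genes, 18.2% had both mutant libraries above both controls, 18.3% had both below, and 6.31% had such a p in limma. *Hspb1*, a small heat shock protein tied to *Tdrd7* in the lens, stood at 1395 and 930.4 FPKM in mutant and at 924 and 1187 FPKM in control lenses, with a wide spread in both genotypes. Its log2 fold change was 0.12 with a standard error of 0.24 (limma, adjusted p = 0.925). *Dnase2b*, the nuclease that degrades fibre cell DNA and a target of *Celf1*, stood at 92.8 and 74.0 against 68.6 and 79.0 FPKM, with a log2 fold change of 0.17 (limma, adjusted p = 0.810).

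Of 12 *Fyco1* transport partners, 1 had an unadjusted p under 0.05 in limma, the kinesin heavy chain *Kif5c*, at 3.71 and 4.28 FPKM in mutant and 5.05 and 5.44 FPKM in control lenses (log2 fold change -0.39, limma unadjusted p = 0.026, adjusted p = 0.757). Among 13 tested genes of ESCRT-III and its partners, 0 had an unadjusted p under 0.05, and 10 had a log2 fold change above 0, as did 50.7% of all tested genes. The median of the list was 0.02, and its direction was not tested. The most abundant were *Chmp2a*, at 48.0 and 44.5 against 42.5 and 39.4 FPKM, and *Tsg101*, at 35.1 and 33.4 against 28.6 and 31.7 FPKM. Both had separate groups and log2 fold changes of 0.18 (limma, adjusted p = 0.810 for each).

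In the metabolic lists, 0 of 7 TIM22 import genes had separate groups, beside 18.2% of all tested genes with mutant above and 18.3% with mutant below. *Slc25a4*, an ADP/ATP carrier imported by that complex, stood at 121 and 113 FPKM in mutant and 112 and 114 FPKM in control lenses. Another such carrier, *Slc25a5*, stood at 27.2 and 30.5 against 28.6 and 28.5 FPKM. *Timm22*, the channel of the TIM22 complex, stood at 4.55 and 5.49 against 4.73 and 4.99 FPKM, above *Agk* in every library. Of 8 tested genes of galactose and polyol metabolism, 0 had an unadjusted p under 0.05, with a median log2 fold change of 0.05, and *Sord*, sorbitol dehydrogenase, stood at 18.6 and 14.5 against 14.3 and 15.7 FPKM. *Pgm1*, a phosphoglucomutase, stood at 12.9 and 12.8 against 13.5 and 12.5 FPKM. Of 15 monocarboxylate transporters and their chaperones, 9 were tested and 0 had an unadjusted p under 0.05. *Slc16a12* had more FPKM than *Slc16a1* in every library (1.14 and 1.45 against 1.12 and 1.24 FPKM). *Slc16a3*, at 2.57 and 3.53 against 3.08 and 3.24 FPKM, was above *Slc16a12* in mutant replicate 1 and below it in the other libraries. *Bsg*, the chaperone of several of these transporters, stood at 133 and 137 against 137 and 125 FPKM, and *Emb*, a related chaperone, at 9.26 and 9.87 against 9.83 and 9.63 FPKM.

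Of 10 tested genes of the Nhs family and the WAVE complex, which drives actin branching, 1 had an unadjusted p under 0.05, *Cyfip2*, with 6.28 and 6.67 FPKM in mutant and 7.76 and 8.06 FPKM in control lenses (log2 fold change -0.29, limma unadjusted p = 0.034, adjusted p = 0.769).

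Among 31 tested genes of other inherited cataracts, 1 had an unadjusted p under 0.05 in limma. *Ftl1*, the ferritin light chain, stood at 760.2 and 679 FPKM in mutant and at 513 and 607 FPKM in control lenses, with a log2 fold change of 0.36 (limma, unadjusted p = 0.041, adjusted p = 0.783). *Ftl1* has near-identical copies in the genome, between which reads could be split. The median of the list was 0.01, and *Mip*, the fibre aquaporin, was at 3974 and 3515 against 3768 and 3906 FPKM.

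**Figure D4:**
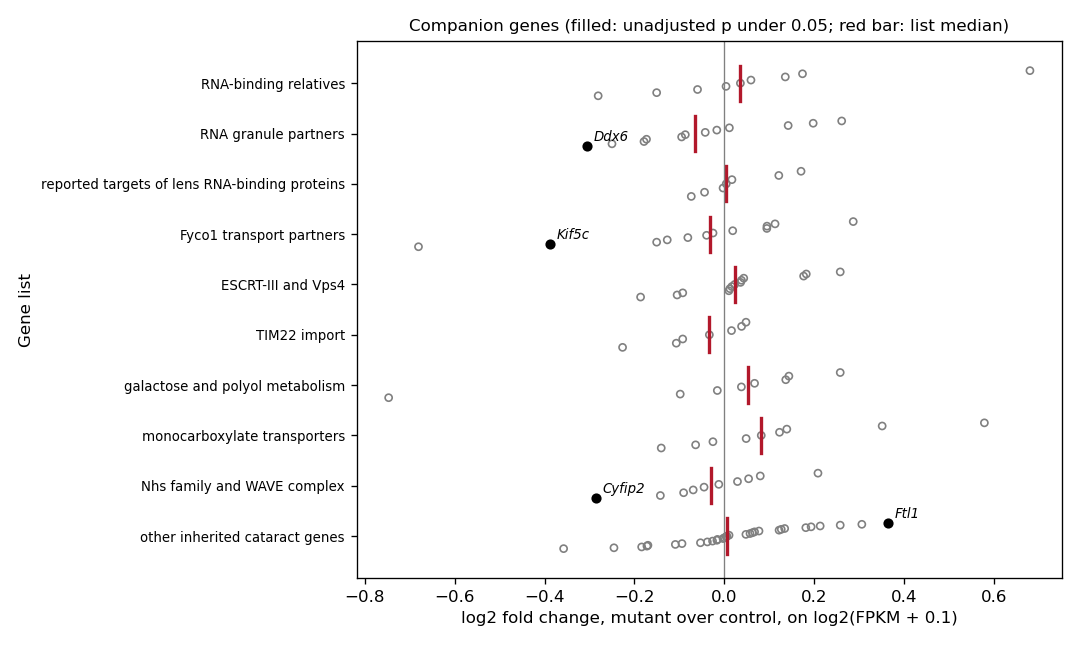
Log2 fold change of mutant over control on log2(FPKM + 0.1) for the tested genes of each of the 10 partner lists, 1 circle per gene, with filled circles for an unadjusted limma p under 0.05 and a red bar at each list's median. The list medians lie between -0.06 and 0.08, and the filled circles are *Ddx6*, *Kif5c* and *Cyfip2* below 0 and *Ftl1* above it.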

How the data were processed

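Lenses were sequenced as polyA RNA in 2 mutant and 2 control libraries, grouped by the sample labels. The authors used HISAT2 for alignment, featureCounts for counting and DESeq2 for testing, and deposited a table of FPKM for 56748 genes with gene model lengths and positions. The submitters' processing notes name the build mm39. The table held 0 other sample columns. Median-ratio scaling moved every library by the same factor, 1.01. The test was limma 3.58.1 on log2(FPKM + 0.1), for genes whose mean FPKM reached 0.1 (lmFit and eBayes with a trend, genotype as the only term) in R 4.3.3, with a threshold of 0.05 on Benjamini-Hochberg adjusted p-values. Whole reads were recovered from the deposited FPKM, with which counting intervals (exact Poisson, 95%, counting error only) and voom were computed. The fits were also run on simulated data with changes much larger than that of any member. That run does not show whether changes of the size seen here would be found. Distances, levels and counts were computed in Python 3.11.15 with pandas 2.3.3, numpy 2.4.6 and scipy 1.17.1, and figures drawn with matplotlib 3.10.9.

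Alternatives changed the pseudocount, filter, scaling, trend, *Xist* term, replicate block, test or library set. Replicate numbers come from the sample titles. The replicate 1 minus 2 differences of the groups correlated at -0.00508 over 15997 genes, and the numbers were not taken to pair the samples.

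The 10 genes, partner lists and tests were chosen with earlier results of these data known. Named were all members, and from each partner list the genes with an unadjusted limma p under 0.05 or otherwise the 2 with the highest mean FPKM. Also named were the 3 nearest profiles of the 3 members with the smallest p, genes overlapping a member, *Pdgfrb* and *Xist*. *Pdgfrb* stood at 2.36 and 2.16 FPKM in the mutant and 2.25 and 1.79 FPKM in the control libraries. *Slc16a1*, *Cryaa*, *Foxe3*, *Itga6*, *Cdh1*, *Col1a1*, *Lum*, *Lim2*, *Gm52993*, *Timm22* and *Mip* were named outside this rule, after their values were seen. So were *C1qa*, *Cd68*, *Col1a2*, *Col3a1*, *Dcn*, *Slc16a3*, *Col4a1*, *Kif5a* and *Map1lc3b*. The same holds for the markers *Pax6*, *Cryab*, *Hba-a1*, *Aif1*, *Csf1r*, *Adgre1*, *Pmel*, *Tyrp1*, *Tyr*, *Dct* and *Mlana*. From the partner lists, 1 gene is not reported here and is left out of their counts. Gene lengths of transcripts came from GENCODE M21 and promoters from RefSeq on GRCm38.p6.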

Additional observations from a re-analysis of the deposited data

How the results depend on the processing

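With 2 libraries per group, no member passed adjustment in limma or in any of 14 alternatives, where the smallest adjusted p was 0.428, and 136 of 139 log2 fold changes kept their sign. Many of these signs could not change. The *Xist* term, replicate block, trend and filter leave a log2 fold change as it is in the main fit. Leaving out the scaling, which is the same for every library, hardly moves it. All 3 changes of sign came with a library left out. The sign changed for *Rbm24* (-0.03) without control replicate 2 and for *Nhs* (0.02) without control replicate 1 (-0.069) or mutant replicate 1. With each library left out, *Rbm24* ranged from -0.088 to 0.025 and *Nhs* from -0.083 to 0.124. At an unadjusted p under 0.05 limma called 0 members. It called 1 with the *Xist* term, 1 in voom and 1 without control replicate 2 (*Caprin2* each time), and 2 without mutant replicate 2 (*Celf1* and *Slc16a12*). *Agk* was not tested at a mean FPKM of at least 1.

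Over all genes, limma called 6 at an adjusted p under 0.05 and 1009 at an unadjusted p under 0.05. It called 1 with the *Xist* term, 2 without the trend, 2 at a mean FPKM of at least 1, 1 with no filter, 2 at a pseudocount of 0.01, 2 at a pseudocount of 1, 2 with a replicate block, and 6 with no scaling or with scaling outside crystallin genes. Voom called 14. Leaving out each library gave 0 to 0 calls, with the lone library of an arm assumed to vary like the other group. The causes were not tested. The replicate block changed no member's call. On coding transcript length, a comparison added after the data had been seen, mean FPKM was 4.50 times higher for *Agk* and 3.82 times for *Caprin2*. *Agk* rests on at most 59 reads in a library. Its standard error was 0.33, and 0.15 without the trend.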
